A study of Mus musculus with 9 samples.

Results

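The genes described here encode nuclear subunits of the mitochondrial respiratory chain and of ATP synthase, measured in endothelial cells (ECs) sorted from mouse lungs. They were chosen by their symbols alone (Ndufa, Ndufb, Ndufc, Ndufs and Ndufv with a number, Sdha to Sdhd, Uqcr, Cox4 to Cox8, and Atp5), and the rule used no measured value, although it was set with earlier results of these data known. In all, 81 of the 18193 genes on the arrays met the rule: 35 of complex I, 4 of complex II, 8 of complex III, 17 of complex IV and 17 of complex V. Ndufa4 was counted with complex I by its symbol, although its protein is known as a subunit of complex IV. Every gene was represented by its probe set of highest mean signal. A further 7 matching symbols lay only on probe sets that carry several symbols and were left out.

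All mice were of the immunodeficient NSG strain and were 6 to 8 weeks old when the metastatic groups were injected, and the healthy mice were matched for age. The healthy IgG group had no metastases and received rat control IgG. The metastatic IgG and metastatic DC101 groups had been injected intravenously 3 weeks earlier with MDA-MB-231-LM2 cells, a lung-seeking derivative of a human breast cancer line, carried lung metastases, and received control IgG or DC101 (40 mg/kg), an antibody that blocks VEGFR2, on days 21 and 24, with lungs harvested on day 25. Each group held 3 arrays, which the labels name biological replicates without stating that each is 1 mouse, so p-values cover only the spread between these samples. Because the host lacks most adaptive immunity and the lungs were taken whole, the ECs stand for all vessels of the lung in such a host and not for those inside metastases alone.

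Respiration passes electrons from NADH (complex I) and succinate (complex II) through complex III to oxygen at complex IV, and the proton gradient that builds up drives ATP synthase (complex V). Most subunits are encoded in the nucleus, and a few catalytic ones, which are not among these genes, in mitochondrial DNA. Quiescent and growing ECs are known to draw much of their ATP from glycolysis, and respiration supports biosynthesis in them. Several subunits of complex IV exist as isoforms used in muscle, lung, testis or low oxygen.

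The values are log2 signals, normalized over all arrays by robust multiarray averaging, so that a log2 change of 1 is a doubling. A gene was called when limma's moderated test over all 18193 genes gave a Benjamini-Hochberg adjusted p under 0.05. Within groups the arrays correlated at r = 0.983 or more. DC101 replicate 3 stood apart from its group, and the results that rest on it are given with and without it. The difference between the 3′ and 5′ probe sets of Gapdh, a control for RNA integrity, ran from 0.69 to 0.77 on healthy arrays, from 0.47 to 0.57 with metastatic IgG and from 0.35 to 0.60 with DC101. Its part in the results was not tested. The EC label was borne out by markers: the mean over 10 pan-endothelial genes, Pecam1 and Cdh5 among them, lay between 13.51 and 13.62 on all 9 arrays, and Emcn was the 1 called between the IgG groups (a rise of 0.53, adjusted p = 0.0341). In such bulk samples, fewer cells of a type and less RNA per cell cannot be told apart.

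Of the 81 genes, 69 had a mean signal above the median of all genes (9.03) and 65 were among the 4549 brightest genes, so that most were well measured. The 12 genes under the median included isoforms of muscle or testis (Cox6a2, Cox6b2, Cox7a1, Cox7b2 and Cox8b), the low-oxygen genes Cox4i2 and Ndufa4l2, and Ndufb1, Ndufb4 and Cox7c, whose probe sets were dim. The signal was lowest for Cox7b2, Ndufb4 and Cox7c and highest for Cox7a2, Cox5b and Cox6a1.

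Promoters of the called genes Cox7a1 and Ndufb1 and of the 6 genes with the largest change in any comparison, Cox7a1 among them, are shown, because the factors NRF1 and GABPA are known to bind near the starts of many respiratory genes. RefSeq windows of 300 bases (assembly GRCm38.p6) were found for 66 of the 81 genes. Each line gives 150 bases before and 30 bases from the start, 5′ to 3′ on the gene's strand, in lower case, with capitals for the letters TGCGCA (NRF1 core) or CCGGAAG (GABPA core) on either strand. Cox7a2 is set beside its muscle isoform Cox7a1.
Cox7a1 (chr7:30184021-30184200, plus strand): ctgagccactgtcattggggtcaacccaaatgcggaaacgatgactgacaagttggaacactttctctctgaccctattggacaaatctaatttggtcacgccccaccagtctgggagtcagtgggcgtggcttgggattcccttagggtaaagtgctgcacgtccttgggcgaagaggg
Cox7a2 (chr9:79759824-79760003, minus strand): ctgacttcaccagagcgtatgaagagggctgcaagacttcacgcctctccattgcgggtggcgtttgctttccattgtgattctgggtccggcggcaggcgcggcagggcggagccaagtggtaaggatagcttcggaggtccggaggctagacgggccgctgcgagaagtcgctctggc
Ndufb1 (chr12:101975709-101975888, minus strand): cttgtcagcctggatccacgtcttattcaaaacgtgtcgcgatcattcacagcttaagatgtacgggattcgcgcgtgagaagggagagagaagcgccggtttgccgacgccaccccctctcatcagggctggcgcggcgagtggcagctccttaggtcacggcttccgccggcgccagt
Ndufb10 (chr17:24724394-24724573, minus strand): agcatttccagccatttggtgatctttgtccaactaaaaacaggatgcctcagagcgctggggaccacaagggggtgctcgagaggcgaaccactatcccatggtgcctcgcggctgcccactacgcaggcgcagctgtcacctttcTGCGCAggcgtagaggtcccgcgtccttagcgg
Uqcr11 (chr10:80406792-80406971, minus strand): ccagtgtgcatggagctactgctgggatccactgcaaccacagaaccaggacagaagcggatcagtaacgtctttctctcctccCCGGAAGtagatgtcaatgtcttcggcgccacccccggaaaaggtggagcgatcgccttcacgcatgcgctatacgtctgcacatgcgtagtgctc
Atp5g2 (chr15:102671018-102671197, minus strand): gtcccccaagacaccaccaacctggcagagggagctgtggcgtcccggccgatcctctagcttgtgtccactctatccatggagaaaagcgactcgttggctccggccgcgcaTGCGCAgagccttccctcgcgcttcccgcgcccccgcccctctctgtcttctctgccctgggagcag
Cox7c (chr13:86046766-86046945, minus strand): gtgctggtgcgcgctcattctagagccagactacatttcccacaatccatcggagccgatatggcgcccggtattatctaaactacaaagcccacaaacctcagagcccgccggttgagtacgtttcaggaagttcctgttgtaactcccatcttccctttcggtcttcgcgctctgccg
Atp5k (chr5:108434370-108434549, minus strand): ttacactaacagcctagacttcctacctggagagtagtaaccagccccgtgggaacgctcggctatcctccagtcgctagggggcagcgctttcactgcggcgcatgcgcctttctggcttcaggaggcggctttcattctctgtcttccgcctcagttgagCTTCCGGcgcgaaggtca
Neither core appeared in the stretches of Cox7a1, Cox7a2, Ndufb1 and Cox7c. Ndufb10 and Atp5g2 held an NRF1 core, which began 3 and 37 bases before the start, and Uqcr11 held a GABPA core that began 66 bases before it. Atp5k held a GABPA core after its start. Over the 300-base windows, the NRF1 core was in 17 of 66 subunit promoters (25.8%), compared with 12.8% of 14368 promoters of all genes on the arrays and 17.2% of those of the 4549 brightest genes. The GABPA core was in 17 subunit promoters (25.8%), compared with 15% and 21.2%. At least 1 core was found in 45.5% of the subunit windows, compared with 25.2% for all genes and 34.4% for the 4549 brightest. By complex it was in 12 of 31 windows of complex I (38.7%), 3 of 3 of complex II, 3 of 5 of complex III, 4 of 12 of complex IV (33.3%) and 8 of 15 of complex V (53.3%). A match of these letters is a description and no evidence of binding.

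The first comparison asked how these genes differed between ECs of metastatic and of healthy lungs under IgG. Expression of the respiratory chain and ATP synthase differed little. Cox7a1, which encodes the muscle isoform of a small complex IV subunit, fell in metastatic lungs and was the single gene called of 81. No gene was called higher. Among all genes 3.93% were called higher and 2.60% lower, and the 81 genes gave 0 and 1 such calls. Trended robust moderation of the variances called more of the 81 genes, in both directions, as named in the closing section. The median log2 change was -0.07 over the 81 genes and -0.02 over all genes, and 52 of the 81 values were negative. By an unadjusted p under 0.05, 17 of the 81 genes and 3873 of all 18193 genes passed, which are similar shares.

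The log2 values of Cox7a1 were 8.10, 8.51 and 8.20 in healthy lungs, 7.49, 7.54 and 7.37 in metastatic lungs with IgG, and 7.60, 7.38 and 8.12 with DC101. Every metastatic IgG array lay below every healthy array, and the third DC101 array reached the healthy range. Cox7a1 fell by 0.81 (SE 0.13, a 1.75-fold decrease, limma adjusted p = 0.0142) between the IgG groups. Without metastatic IgG replicate 3 the change was -0.76 with an adjusted p of 0.0568, which missed the threshold. The call was also lost with no moderation of the variances (adjusted p = 0.0841). Cox7a2, the widely expressed isoform of the same subunit, stood at 14.10 ± 0.02 and 14.03 ± 0.06 (SD, n = 3 per group), a difference of -0.07 with a 95% interval of -0.27 to 0.13.

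Markers of other cell types were measured beside Cox7a1. Actc1, the cardiac actin, fell by 2.36 (adjusted p = 0.00469) and was the 1 called of 18 cardiac muscle markers, whose mean lay between 7.67 and 7.98 on healthy, 7.53 and 7.61 on metastatic IgG and 7.50 and 7.60 on DC101 arrays. Array signals have no true 0, and the cardiac markers Myh6, Myl7 and Tnnt2 averaged 7.49, 7.48 and 7.45 in healthy lungs, under the median of all genes. Of 12 fibroblast and mural markers, Myh11 and Cnn1, which are contractile genes of smooth muscle, fell by 1.14 and 0.81, Dcn fell by 1.05, and Col1a1, Col1a2 and Col3a1 rose. The list mean ran from 9.82 to 10.06 on healthy, from 9.70 to 10.16 on metastatic IgG and from 10.03 to 10.27 on DC101 arrays. Of the other lists, 4 of 8 erythrocyte and platelet genes and 5 of 10 lung epithelial genes fell, 3 of 10 macrophage and monocyte genes rose, and 0 of 6 neutrophil and 0 of 6 mesothelial genes were called. The mean of the epithelial list lay between 9.04 and 9.66 on healthy, 8.59 and 8.75 on metastatic IgG and 8.50 and 9.60 on DC101 arrays. That of the erythrocyte and platelet list lay between 8.94 and 9.04, 8.09 and 8.33, and 8.26 and 8.54. That of the macrophage and monocyte list lay between 8.90 and 9.02, 9.13 and 9.36, and 8.92 and 9.38. The part of any of these cell types in the value of Cox7a1 was not tested.

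The other isoforms of complex IV did not pass the test. Cox8b, a muscle isoform, was lower on all metastatic IgG arrays (8.15, 8.19 and 7.98) than on healthy arrays (8.65, 8.28 and 8.33), with a change of -0.32 (adjusted p = 0.211). Cox6a2, the muscle partner of Cox6a1, differed by -0.07, as Cox6a1 did. Cox4i2, an isoform known from lung and from low oxygen, had scattered values of 8.63, 8.96 and 8.93 in healthy, 8.93, 7.92 and 8.37 in metastatic IgG and 9.32, 8.48 and 8.62 in DC101 lungs. Its interval between the IgG groups, -1.01 to 0.15, allows a large decrease as well as no change. Its common counterpart Cox4i1 was steady, at 13.27 ± 0.07 and 13.20 ± 0.09. Cox5a and Cox5b, which sit around the catalytic core, changed by 0.14 and -0.07.

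Cox7c, a small complex IV subunit, had the most positive value of all members. It measured 7.03, 7.18 and 6.79 in healthy and 7.87, 7.40 and 7.61 in metastatic IgG lungs, a change of 0.63 (SE 0.16) that missed the threshold (adjusted p = 0.0635). Under DC101 it spread from 6.82 to 7.48 and overlapped both groups. Both of its probe sets were dim, and the one not used here changed by -0.04 between the IgG groups.

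**Figure D1:**
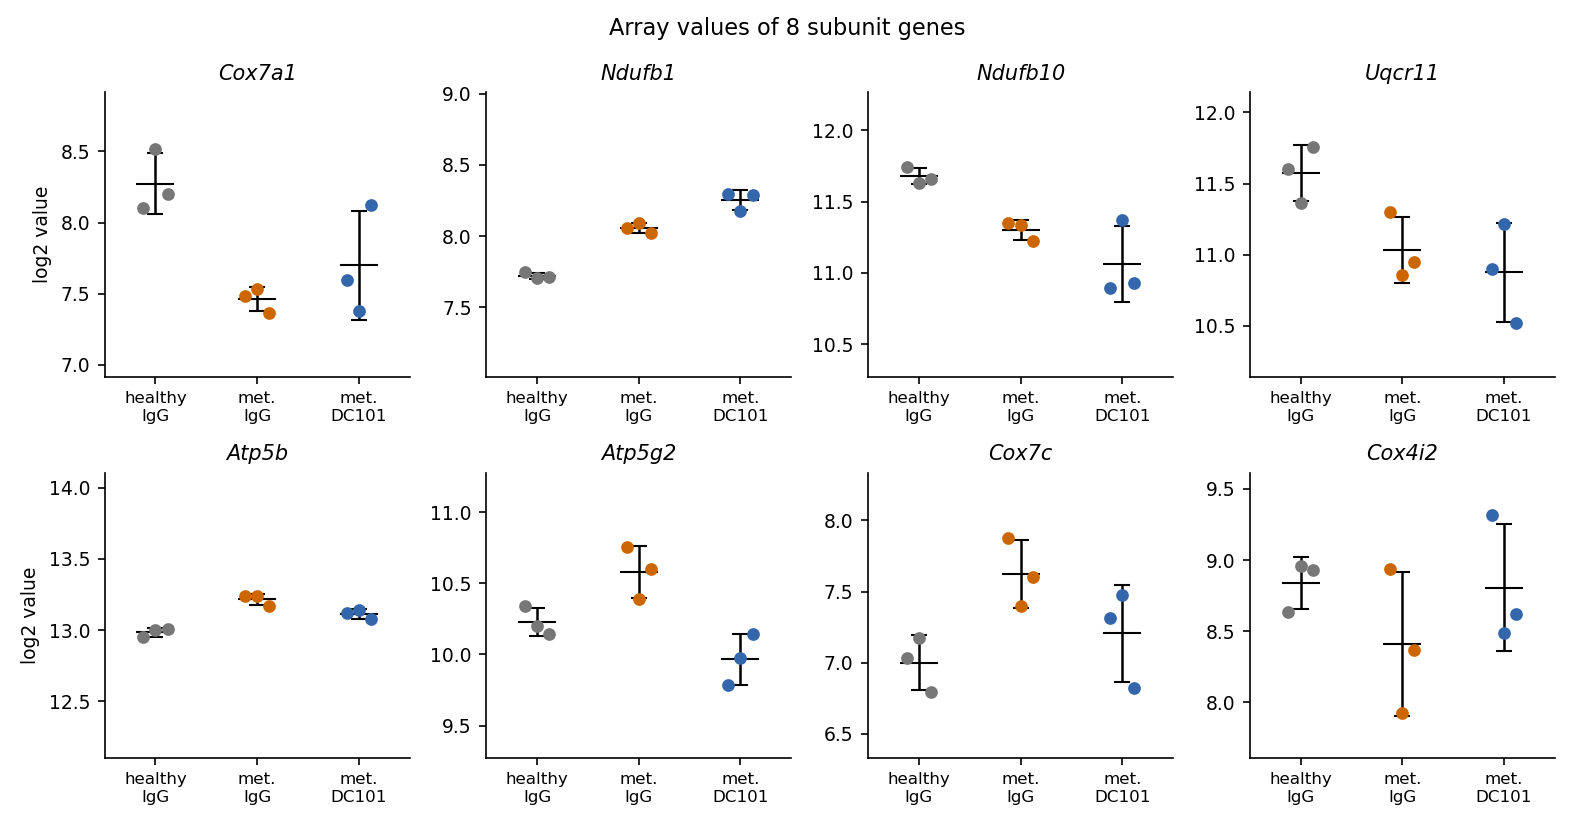
Log2 values (y axes, each spanning 2 log2 units) of 8 subunit genes on the 3 arrays of each group (x axis). Points are arrays, and the black bar and whiskers are the mean and SD of the group. Cox7a1 separates the IgG groups, Ndufb1 separates all 3 groups, and Cox4i2 overlaps throughout.

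In complex I, 14 of 35 genes were higher and 21 lower, with a median of -0.06 and no call. Ndufb1, an accessory subunit of the membrane arm, stood at 7.75, 7.71 and 7.71 in healthy and at 8.06, 8.09 and 8.02 in metastatic IgG lungs. The arrays did not overlap, and the change of 0.34 (SE 0.08) missed the threshold (adjusted p = 0.0566). Ndufb10, another accessory subunit of that arm, pointed the other way, from 11.74, 11.63 and 11.66 to 11.35, 11.33 and 11.22 (change -0.38, SE 0.09, adjusted p = 0.0532). Ndufa7, an accessory subunit of the peripheral arm, had a change of -0.38 (adjusted p = 0.144), and each of its 5 probe sets lay lower on all metastatic IgG arrays. Core subunits, which carry the electrons, were split: Ndufs1, an iron-sulfur protein, changed by 0.31, Ndufs7, next to the quinone site, by -0.25, and Ndufv1, which binds NADH, by -0.05, none past the test. The median over the 6 measured core subunits of the peripheral arm was 0.00104. Ndufa4l2, a target of hypoxia-inducible factors, differed by -0.06 with an interval of -0.56 to 0.44.

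In complex II, which also belongs to the tricarboxylic acid cycle, Sdha, the flavoprotein, stood at 12.46 ± 0.04 and 12.48 ± 0.04, and Sdhc and Sdhd, the membrane anchors, changed by -0.03 and 0.02. Sdhb, the iron-sulfur subunit, was lower on each metastatic IgG array (12.45, 12.28 and 12.36) than on any healthy array (12.56, 12.58 and 12.64), a change of -0.24 that did not pass the test (adjusted p = 0.186). In complex III, the core proteins Uqcrc1 and Uqcrc2 changed by -0.04 and -0.01 and the Rieske protein Uqcrfs1 by 0.03. Its small subunits Uqcr11 and Uqcr10 had values of -0.54 (SE 0.15, adjusted p = 0.0954) and -0.26 (adjusted p = 0.171). Uqcr11 measured 11.60, 11.37 and 11.75 in healthy and 11.30, 10.86 and 10.95 in metastatic IgG lungs, which did not overlap.

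In complex V, 8 of 17 genes were higher and 9 lower, with a median of -0.03. The catalytic F1 subunit Atp5b was among the tightest genes, at 12.95, 13.00 and 13.00 in healthy and 13.24, 13.24 and 13.17 in metastatic IgG lungs, a change of 0.23 (SE 0.08, adjusted p = 0.157). Its partner Atp5a1 changed by 0.14, and Atp5pb of the peripheral stalk by 0.21. The genes Atp5g1, Atp5g2 and Atp5g3 encode the same mature c-ring peptide, and their changes were -0.18, 0.35 and 0.06, none past the test. A second, dim probe set of Atp5g2 rose by 0.90 in a fit over all probe sets (adjusted p = 0.0355), and its remaining probe set changed by -0.07. Atp5k and Atp5l, small subunits of the membrane part, had values of -0.28 and -0.36. Across the complexes the medians ran from -0.08 (complex IV) to -0.01 (complex II), and the differences between complexes were not tested.

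**Figure D2:**
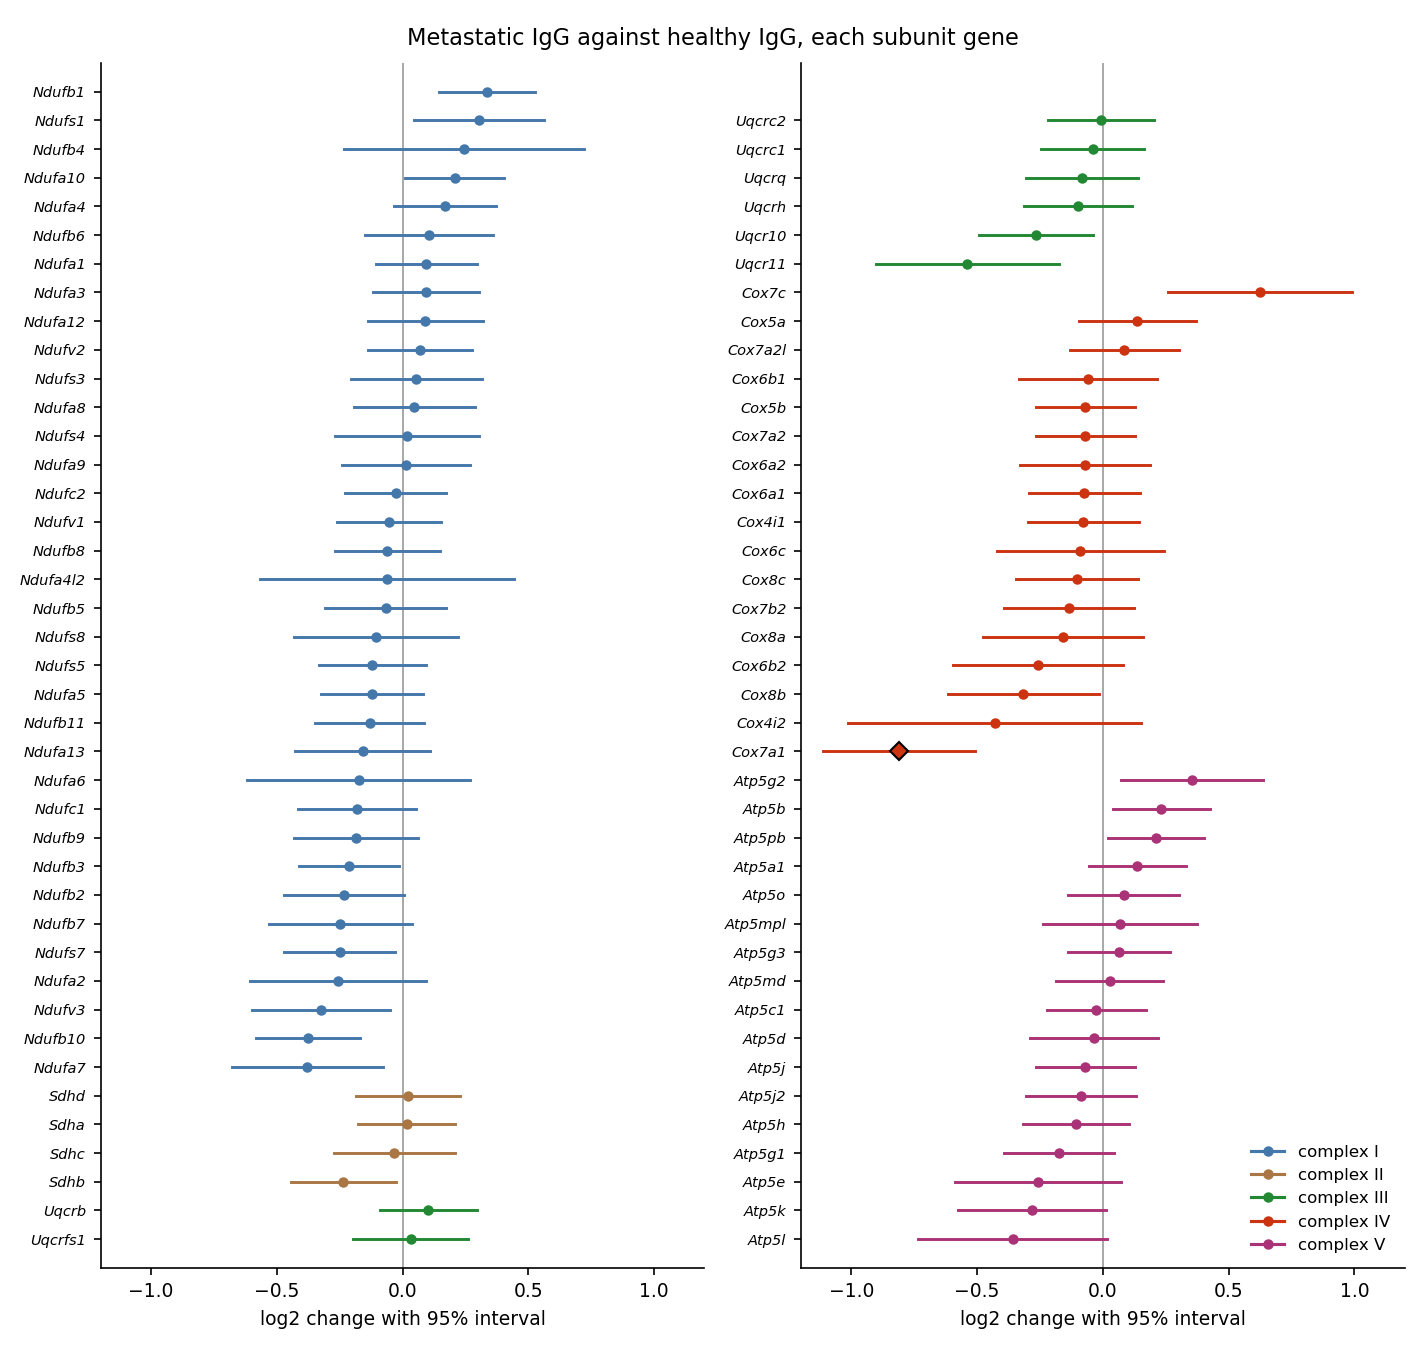
Log2 change of each of the 81 genes between metastatic IgG and healthy IgG lungs (x axis) with its 95% interval from limma, ordered by complex and size. The diamond is the called gene Cox7a1, and 17 intervals do not include 0.

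The groups did not overlap for 10 genes that were higher and 19 that were lower in metastatic lungs, or 12.3% and 23.5% of the 81 genes. Over all genes 13.0% did not overlap in the higher and 14.7% in the lower direction, and among the 4549 brightest genes 19.2% and 21.5%, near the members' share in the lower direction and above it in the higher. Complex I held 10 of the 19 and complex V 4. The sizes were small: 3 of the 81 genes (3.7%) changed by more than 0.5 in either direction, compared with 10.8% of all genes and 6.95% of the 4549 brightest genes, and none by more than 1. For 61 genes the whole 95% interval lay within 0.5 of no change, and for 79 within 1. Changes of more than 2-fold were thus outside the intervals for all but 2 of the 81 genes. These 2 were Cox7a1 and Cox4i2.

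The next comparison asked what VEGFR2 blockade did in metastatic lungs. No gene was called in either direction by limma among the 81 or among all genes, where percentages called were 0 and 0. Unadjusted, 1 of the 81 genes and 1209 of all 18193 genes had p under 0.05, a smaller share of the 81 than of all genes. With the plain linear model and with trended robust moderation 0 of the 81 were called too. The median change was -0.06 over the 81 genes and -0.02 over all genes, and 58 values were negative. Without DC101 replicate 3, the medians were 0.01 and -0.00272, so the sign of the group median rested on that array. Of the genes named by a fixed rule, 15 changed sign without it and 28 did not.

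Atp5g2 had the lowest unadjusted p and the largest difference. It measured 10.75, 10.39 and 10.60 with IgG and 9.79, 9.97 and 10.14 with DC101, compared with 10.34, 10.20 and 10.14 in healthy lungs. The DC101 and IgG arrays of metastatic lungs did not overlap, and the change was -0.61 (SE 0.14, 95% interval -0.95 to -0.28), which did not pass over all genes (adjusted p = 0.737). The groups also did not overlap for Uqcrc2, Cox7a2l, a factor that joins complexes III and IV, and Atp5b, all lower with DC101, and for Ndufb1, higher with DC101 (8.30, 8.17 and 8.29 against 8.06, 8.09 and 8.02). These 4 lower and 1 higher genes make 4.94% and 1.23% of the 81, and over all genes 6.95% were lower and 5.40% higher without overlap. Without DC101 replicate 3, when fewer arrays have to separate, 5 were lower and 7 higher (6.17% and 8.64%, compared with 11.5% in each direction over all genes).

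The catalytic and core genes were split in size. All 6 measured core subunits of the peripheral arm of complex I had negative values, with a median of -0.11, Ndufv2 the smallest at -0.00138. Its iron-sulfur subunits Ndufs8 and Ndufs7 lay at -0.35 and -0.31. Signs and sizes depended on the probe set: others of Ndufs8 ran from -0.18 to 0.29, and the other of Ndufs7 gave -0.17. The mean deviation of the 6 genes overlapped, from -0.32 to 0.08 on DC101 and from -0.03 to 0.12 on metastatic IgG arrays. Uqcrc2 changed by -0.19. Ndufv1 changed by -0.09, Sdha by -0.06, Uqcrc1 by 0.01, Cox4i1 by -0.09, Cox5a by -0.01, Atp5a1 by -0.11 and Atp5b by -0.10, and all of these intervals included 0. Cox7a1 changed by 0.24 (adjusted p = 0.831) and Cox4i2 by 0.40 (interval -0.31 to 1.10). Cox7c changed by -0.42. For 59 of the 81 genes the interval lay within 0.5 of no change, and for 80 within 1.

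**Figure D3:**
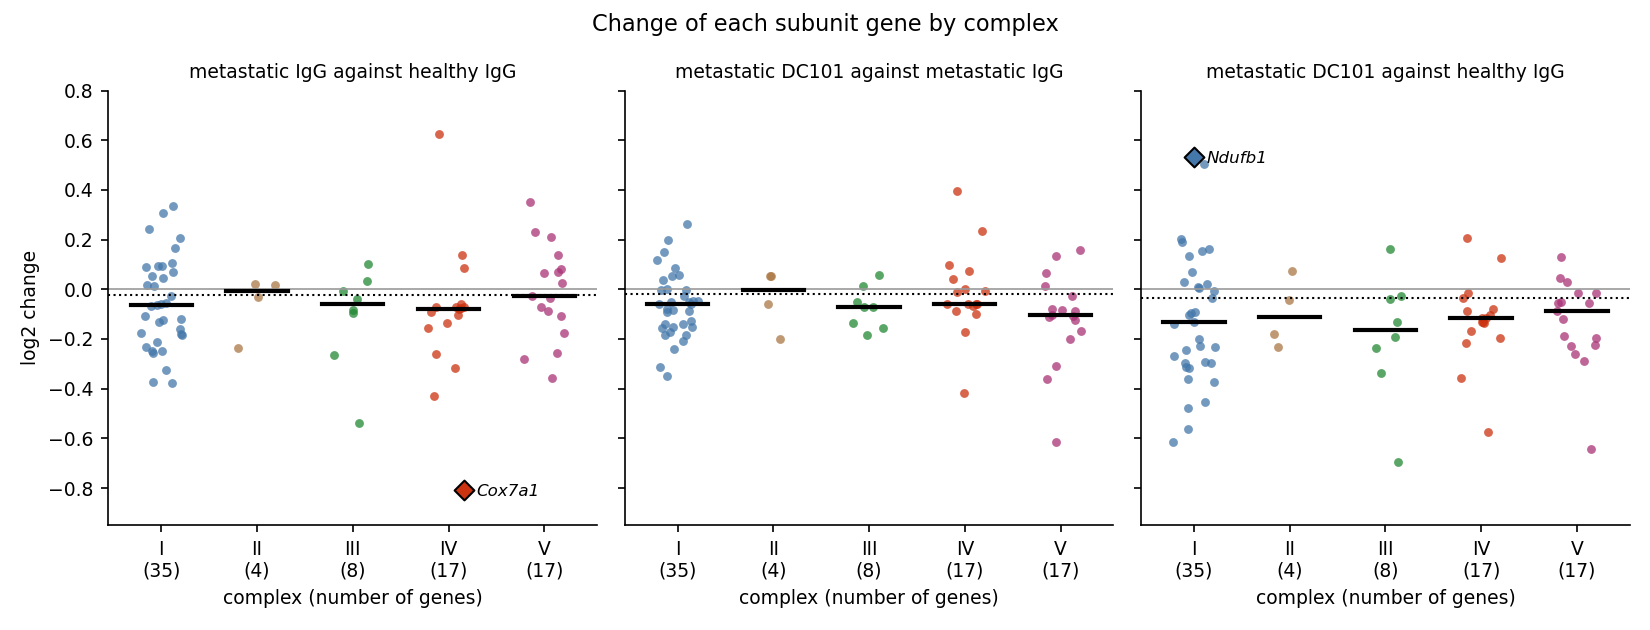
Log2 change (y axis) of each gene by complex (x axis, number of genes in brackets) in the 3 comparisons. Short bars are the medians of a complex, the dotted line is the median of all genes, and diamonds are called genes (Cox7a1 lower in the first comparison, Ndufb1 higher in the last). The lowest complex median is -0.16, and none is above 0.

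The last comparison set metastatic lungs with DC101 against healthy lungs, and shares the DC101 arrays and the healthy arrays with the comparisons above. Ndufb1 rose from 7.72 ± 0.02 to 8.25 ± 0.07 (SD, n = 3 per group) and was the single gene called of 81. The change was 0.53 (SE 0.10, a 1.45-fold increase, limma adjusted p = 0.0392). Its only probe set was dim, with a mean of 8.01 compared with a median of 9.03 over all genes. The call was fragile: it was lost without any 1 of the 6 arrays (adjusted p from 0.0678 to 0.137), although the size stayed between 0.51 and 0.57. No gene was called lower. Over all genes 1.58% were called higher and 0.835% lower. By an unadjusted p under 0.05, 13 of the 81 genes and 3088 of all 18193 genes passed, which are similar shares.

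The median change was -0.12 over the 81 genes and -0.04 over all genes, with 62 of the 81 values negative. By complex the medians were -0.13 (I), -0.11 (II), -0.16 (III), -0.12 (IV) and -0.09 (V). Without DC101 replicate 3 the median over the 81 genes was -0.06. The most negative values were those of Uqcr11 (-0.70, SE 0.19, adjusted p = 0.129), Atp5k (-0.64, SE 0.20, adjusted p = 0.166), Ndufb10 (-0.62, SE 0.15, adjusted p = 0.0916), Cox7a1 (-0.57, adjusted p = 0.223) and Ndufs7 (-0.56, adjusted p = 0.14). None of these passed the test. On the DC101 arrays Ndufb10 measured 10.89, 11.37 and 10.93 and Uqcr11 10.90, 11.21 and 10.52, all below the healthy arrays. Atp5k measured 11.97, 11.80 and 11.61 in healthy and 10.86, 11.58 and 11.01 in DC101 lungs. In Ndufb10, Uqcr11 and Atp5k the second DC101 array was the highest of its group.

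The groups did not overlap for 6 genes that were higher and 18 that were lower with DC101 than in healthy lungs (7.41% and 22.2%). Over all genes 9.44% did not overlap in the higher and 13.6% in the lower direction, and among the 4549 brightest genes 11.5% and 18.4%. Without DC101 replicate 3 the counts were 17 higher and 21 lower (21.0% and 25.9%, compared with 15.9% and 18.7% over all genes). The change exceeded 0.5 for 7 of the 81 genes (8.64%), compared with 9.25% of all genes and 5.58% of the 4549 brightest genes, and no change exceeded 1.

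The spread between arrays differed by group. The median SD of the 81 genes was 0.0595 on healthy, 0.0992 on metastatic IgG and 0.178 on DC101 arrays. That of all genes was 0.135, 0.139 and 0.171, and that of the 4549 brightest genes 0.0889, 0.0947 and 0.15. As a mean deviation from each gene's average over the 9 arrays, the 81 genes stood at 0.08, 0.06 and 0.05 on healthy arrays, at 0.08, -0.02 and -0.06 on metastatic IgG arrays and at -0.06, 0.07 and -0.20 on DC101 arrays. The group ranges overlapped over all 81 genes. In complex III the healthy arrays, at 0.11, 0.09 and 0.11, lay above the metastatic IgG arrays (0.05, -0.03 and -0.06) and the DC101 arrays (-0.10, 0.05 and -0.21). These are means over 8 genes. Between the IgG groups Uqcr11 (-0.54) and Uqcr10 (-0.26) changed most, and the others lay between -0.10 and 0.10. Uqcrb went the other way without overlap, by 0.10, and by 0.38 on its other probe set, not used here. In complex IV the healthy arrays, at 0.08, 0.10 and 0.06, lay above the DC101 arrays (0.01, -0.02 and -0.13) and overlapped the metastatic IgG arrays. The third DC101 array was lowest in all 5 complexes, from -0.13 in complex IV to -0.25 in complex II. On it, 47 of the 81 genes (58%) had their lowest value of the 9 arrays, compared with 19.5% of all genes and 27.8% of the 4549 brightest genes. The same array had the lowest Gapdh 3′ to 5′ difference, 0.35. It also had the highest mean of 6 mesothelial markers (8.67, compared with 7.20 to 8.04 on the other 8 arrays), the highest of the fibroblast and mural markers (10.27) and the lowest of the lung epithelial markers (8.50). The part of these in its values was not tested. Without it, the median SD of the 81 genes over the remaining pair of DC101 arrays was 0.115.

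**Figure D4:**
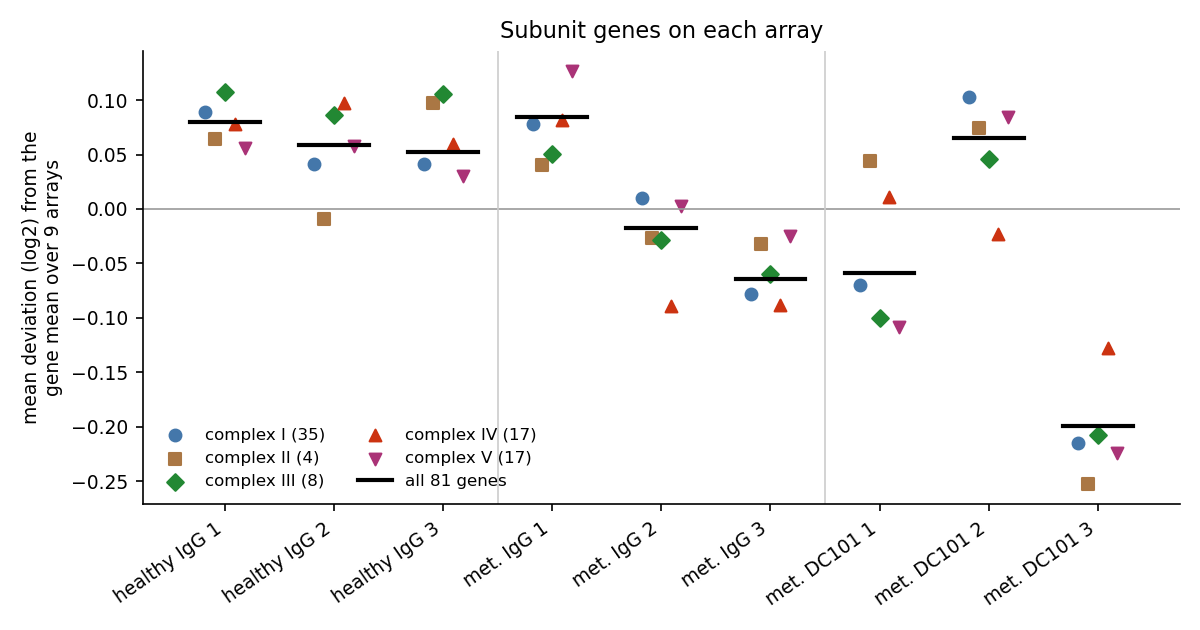
Mean deviation (y axis, log2) of the genes of each complex from their average over the 9 arrays, for every array (x axis). Coloured symbols are complexes with their number of genes, black bars are all 81 genes. The third DC101 array lies lowest for every complex. In the mean over the 8 genes of complex III, of which Uqcr11 and Uqcr10 changed most between the IgG groups, all healthy arrays lie above all metastatic arrays.

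The genes around the respiratory chain were counted from lists. Among factors that assemble complex IV, Lrpprc, which stabilises mitochondrial mRNAs, rose in metastatic IgG over healthy lungs from 9.76, 9.87 and 9.83 to 10.43, 10.40 and 10.29 (change 0.56, SE 0.09, adjusted p = 0.014), the 1 called of 15. On DC101 arrays it stood at 10.02, 9.91 and 9.72, a change of -0.49 from metastatic IgG that did not pass (adjusted p = 0.737). Cox15, an enzyme of heme A synthesis, rose in DC101 over healthy lungs, from 9.99, 9.68 and 9.26 to 10.82, 10.52 and 10.80 (change 1.07, SE 0.19, adjusted p = 0.0379), also 1 of 15. Its change was 0.62 in metastatic IgG over healthy lungs and 0.45 in DC101 over metastatic IgG lungs, neither of which passed. Assembly factors of complex I (13 genes), complex II (4), complex III (6) and complex V (4) gave 0 calls in the 3 comparisons. Of 15 import and chaperone genes, Hspe1, the mitochondrial co-chaperonin, rose in metastatic IgG lungs by 0.52 (adjusted p = 0.0282). Cycs, the electron carrier cytochrome c, and Cyc1, the cytochrome c1 subunit of complex III that the symbol rule left out, changed by 0.07 and -0.00394 between the IgG groups.

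Regulators of respiratory genes and of mitochondrial DNA, Ppargc1a, Nrf1, Gabpa and Tfam among them, gave 0 calls of 15 in each comparison, and their medians were -0.00285, -0.15 and -0.15. The 15 measured genes of pyruvate dehydrogenase and the tricarboxylic acid cycle also gave 0 calls, with medians of 0.07, -0.09 and 0.01. Of 73 mitochondrial ribosomal proteins 2, Mrpl17 and Mrps22, were called higher between the IgG groups (2.74%, compared with 3.93% of all genes), and none in the other comparisons. In a list of 8 genes of the hypoxia-inducible switch of respiration, Hif1a itself rose by 0.95 in metastatic IgG over healthy lungs and by 1.16 in DC101 over healthy lungs (adjusted p = 0.00247 and 0.00432). Bnip3, a mitophagy receptor, rose by 0.69 and 0.70 (adjusted p = 0.00768 and 0.0239). Pdk1, which restrains pyruvate dehydrogenase, the isoform genes Cox4i2 and Ndufa4l2, and Lonp1, Higd1a and Epas1 of the same list did not pass. The list did not move as a whole. Between the IgG groups 4 of its values were positive and 4 negative, with a median of -0.01. In DC101 over healthy lungs 3 were positive and 5 negative, with a median of -0.02.

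Of the 48 genes with several probe sets, the sets shared 1 sign of change for 25 in the first, 24 in the second and 27 in the last comparison, and the median range of the changes within a gene was 0.16, 0.15 and 0.19. The median size of the change over the 81 genes, in either direction, was 0.106, 0.088 and 0.161.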

How the data were processed

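RNA of sorted lung ECs (positive for CD31, without CD45, CD11b, CD326, CD140a, CD140b or tumour-cell GFP) was amplified with a 3′ IVT kit and hybridised to Affymetrix Mouse430_2 arrays. The deposited values are log2 signals that the authors normalized by robust multiarray averaging in Chipster, without pooling replicates. Because the arrays are equalised, a change shared by all transcripts would not appear in them. Of 45101 probe sets, 64 controls, 932 with several symbols and 9160 without a symbol in the platform table were left out. Each of 18193 genes was represented by the brightest of its probe sets (34945 in all, 164 for the 81 genes).

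Groups came from the labels. Each pair of groups was compared on its own 6 arrays with lmFit and eBayes of limma 3.58.1 (R 4.3.3), two-sided, with Benjamini-Hochberg adjustment over all genes, after the empirical Bayes comparisons of the study's methods. The procedure was tested on simulated data with independent noise and planted log2 changes of 1. No subunit gene changed by more than 1, so that test gives no measure of how smaller changes are found. The members, by symbol, and the gene lists were chosen with earlier results of these data known. Named genes were those called, the 2 most positive and 2 most negative of each complex in each comparison, fixed catalytic subunits and isoforms, and the 3 brightest and 3 dimmest. Alternatives are given in the closing section. The number of arrays limits the precision. Promoters were read from a RefSeq table.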

Additional observations from a re-analysis of the deposited data

How the results depend on the processing

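Between metastatic IgG and healthy lungs, 0 genes were called higher and 1 lower. The mean of all probe sets gave 1 higher and 2 lower, no variance moderation 1 and 0 (Cox7a1 lost its call), trended robust moderation 3 and 3 (Cox7c, Atp5b and Atp5pb higher, Cox7a1, Ndufb10 and Uqcr11 lower), and genes above the median signal alone, which leave out Cox7a1, 2 lower (Ndufb10 and Uqcr11). Leaving out 1 array gave 0 to 1 lower, with 0 without metastatic IgG replicate 3. Between DC101 and healthy lungs, the 1 gene called higher (Ndufb1) became 0 with no moderation, trended robust moderation and every leave-one-out fit (0 to 0). Genes above the median signal, which leave out Ndufb1 too, gave 0. The count of genes called lower became 1 (Ndufb10) with all 9 arrays in 1 fit (adjusted p = 0.037) and without DC101 replicate 2 (range 0 to 1). With the replicate number as a block, Cox7a1 kept its call and Ndufb1 lost it (adjusted p = 0.102, 0 genes called higher). Same-numbered arrays did not deviate together over all genes (correlations from -0.05 to 0.08). With 3 arrays per group this cannot exclude a pairing, and the labels state none. Between DC101 and metastatic IgG, no alternative gave a call. The cause of these differences was not tested.

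Medians of the 81 genes ranged from -0.10 to -0.03, from -0.14 to 0.01 and from -0.19 to -0.06 in the 3 comparisons. Of 1776 combinations of a named gene and an alternative, 1678 kept sign and side of the threshold, 12 gained and 11 lost a call, 0 called values reversed, and 75 uncalled values changed sign, Cox7c (to -0.04 with its other probe set) among them. Counts of non-overlapping groups without DC101 replicate 3 were chosen after seeing the data. Updating symbols through RefSeq left 81 genes. Dim probe sets can understate changes.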
